A study of Mus musculus with 2 samples.

Results

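The metalloproteinases and their inhibitors were followed through a comparison of cultured endothelial cells, which form the inner lining of vessels, with and without Cre-mediated deletion of Snail1. Members were taken by gene symbol alone, as probe sets that name a single matrix metalloproteinase (Mmp), tissue inhibitor of metalloproteinases (Timp1 to Timp4), Adam, Adamts or Adamtsl gene. The rule found 124 probe sets of 34945 that name a single gene, and they stand for 70 of 18193 genes: 18 Mmp, 4 Timp, 28 Adam, 15 Adamts and 5 Adamtsl genes. A probe set is a group of short array probes summarised to 1 value, and 32 of the 70 genes had more than 1.

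Both groups were primary cells of strain C57/BL6 from E10.5 (mid-gestation) embryos that carried Snail1f/f, a floxed Snail1 on both alleles, and both were grown in DMEM with 20% fetal bovine serum and an endothelial growth factor cocktail. WT ECs received an adenovirus carrying β-galactosidase and Snail1 KO ECs an adenovirus carrying Cre, with recovery over several days. The WT cells therefore hold the floxed alleles and a virus as well, and no array holds Cre without a floxed Snail1, so loss of Snail1 and effects of Cre or of the virus cannot be told apart. Each group is 1 Affymetrix array, so values are given without an error and no difference was tested. How many embryos gave the cells is not stated in the labels.

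Matrix metalloproteinases are zinc-dependent enzymes, made as inactive zymogens, that cut collagens, laminins and other matrix proteins, and in endothelium they act in sprouting and vessel remodelling. TIMPs are small secreted proteins that plug the active site of these enzymes. ADAMs are mostly membrane-bound relatives that cut growth factors, receptors and adhesion molecules off the cell surface. ADAMTS enzymes are secreted and carry thrombospondin repeats, and ADAMTS-like proteins have the repeats without the protease domain. Snail1 is a zinc finger repressor that binds the E-box CAGGTG.

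The values were log2 expression values, and every difference is Snail1 KO minus WT, so 1 unit is 2-fold. Snai1 was at 5.33 on the WT array and 3.59 on the Snail1 KO array. The 4 control probe sets for phage P1 Cre lay between 2.69 and 3.83 on the WT array and between 11.87 and 12.86 on the Snail1 KO array. Of the listed endothelial markers, 15 of 16 were above the filter described next, with Cdh5 at 11.34 and 11.46. Markers of other cell types were above it too, in 10 of 12 for pericytes and smooth muscle, 8 of 11 for epithelium and 6 of 10 for fibroblasts, so passing the filter does not set the endothelial list apart. Among them Thy1 read 11.43 and 11.37, Dcn 9.45 and 9.62 and Acta2 10.94 and 9.09. Other markers of these lists were dim, such as Pdgfra at 3.76 and 3.86 and Pdgfrb at 4.45 and 4.05. On the WT array the measured endothelial markers had a median level of 10.73. Fibroblast markers had 7.14, epithelial markers 5.13 and pericyte and smooth muscle markers 5.04. Levels of different genes are not comparable as amounts of RNA. Among the 15 endothelial markers above the filter, 9 were higher and 6 lower on the Snail1 KO array, with a median difference of 0.07. They ran from -0.74 for Flt1 to 1.08 for Cldn5. Cldn5 was the 1 marker past 2-fold, where 0.971% of all genes above the filter were that much higher. Pericyte and smooth muscle markers were lower on the Snail1 KO array in 7 of 10 measured members, beside 50.9% of all genes, with a median of -0.36. Of the 10, 3 were past 2-fold lower, where 1.84% of all genes were, and Tagln and Acta2 were the furthest at -2.54 and -1.85. Leukocyte markers had a median of -0.06 over 6 of 12, with Coro1a at -1.96 and Ptprc, the pan-leukocyte gene, dim on both arrays at 2.96 and 3.29. Epithelial markers had a median of -0.17 over 8 genes. Beside the same 1.84%, 2 of them were past 2-fold lower, Krt19 at -1.37 and Krt18 at -1.30. Cdh1 was dim on both arrays at 2.59 and 2.51. The median of 6 fibroblast markers was 0.03, with Col3a1 the furthest, at 7.33 and 6.33. In such bulk RNA, fewer cells of a type and less RNA per cell cannot be told apart, and the part of other cell types in the differences below was not tested.

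The promoters shown first are those of the members on which the account turns. Timp1, Mmp11 and Adamtsl4 are members past 2-fold. Timp2 and Timp3, chosen by name, are inhibitors whose passing probe sets were all higher but by unequal amounts. Adam10 and Adam17, whose probe sets lay further apart than those of Timp3, are not shown. The fourth gene past 2-fold, Adamtsl1, is named only. Each window runs from 250 bases before to 50 after the annotated start, 5′ to 3′ on the gene's strand, from RefSeq on GRCm38.p6. Single capitals mark the first base after the annotated start, and longer runs of capitals mark an E-box, searched as CAGGTG on both strands (CACCTG on the other). The windows lie at chrX:20869916-20870215 (plus strand) for Timp1, chr11:118355362-118355661 (minus strand) for Timp2, chr10:86300162-86300461 (plus strand) for Timp3, chr10:75932453-75932752 (minus strand) for Mmp11 and chr3:95687868-95688167 (minus strand) for Adamtsl4.
Timp1: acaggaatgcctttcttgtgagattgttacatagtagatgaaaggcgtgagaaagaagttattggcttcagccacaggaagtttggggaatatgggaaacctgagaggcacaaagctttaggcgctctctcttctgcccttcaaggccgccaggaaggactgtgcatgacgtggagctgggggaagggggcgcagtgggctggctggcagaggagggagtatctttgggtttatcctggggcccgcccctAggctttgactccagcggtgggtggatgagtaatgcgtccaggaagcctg
Timp2: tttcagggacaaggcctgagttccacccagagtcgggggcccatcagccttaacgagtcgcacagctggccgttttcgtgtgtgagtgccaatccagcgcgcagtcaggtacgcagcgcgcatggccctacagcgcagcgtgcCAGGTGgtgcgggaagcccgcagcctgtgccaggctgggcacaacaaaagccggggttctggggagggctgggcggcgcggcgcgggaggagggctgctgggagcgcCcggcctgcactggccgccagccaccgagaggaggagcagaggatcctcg
Timp3: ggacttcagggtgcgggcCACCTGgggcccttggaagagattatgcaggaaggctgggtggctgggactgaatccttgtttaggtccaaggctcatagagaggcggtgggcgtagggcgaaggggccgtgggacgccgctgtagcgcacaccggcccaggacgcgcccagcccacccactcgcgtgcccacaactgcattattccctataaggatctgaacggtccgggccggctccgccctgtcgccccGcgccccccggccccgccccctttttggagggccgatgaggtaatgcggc
Mmp11: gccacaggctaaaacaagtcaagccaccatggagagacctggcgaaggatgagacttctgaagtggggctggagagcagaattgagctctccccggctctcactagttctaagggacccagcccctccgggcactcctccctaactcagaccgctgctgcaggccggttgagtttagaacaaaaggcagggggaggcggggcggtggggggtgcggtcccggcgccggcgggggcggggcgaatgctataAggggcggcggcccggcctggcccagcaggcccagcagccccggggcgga
Adamtsl4: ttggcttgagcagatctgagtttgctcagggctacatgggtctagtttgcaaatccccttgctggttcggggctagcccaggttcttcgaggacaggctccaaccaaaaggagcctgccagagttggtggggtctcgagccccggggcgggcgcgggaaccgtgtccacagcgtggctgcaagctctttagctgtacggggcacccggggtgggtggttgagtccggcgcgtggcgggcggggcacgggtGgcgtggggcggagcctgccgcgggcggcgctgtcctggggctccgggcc
The letters CAGGTG occurred in the Timp2 window, starting at position -107 from the start, and in the Timp3 window as CACCTG at -232, and in none of the windows of Timp1, Mmp11 and Adamtsl4. Windows were found for 41 of the 70 genes, and 9 of the 41 held the E-box in at least 1 window. That is 22.0% beside 22.6% of all 27025 genes with a window. Of the 21 members with a window that were above the filter, 4 held it: Timp2, Timp3, Adam19 and Mmp7. That share is 19.0%, beside 21.7% of all such genes. A match is a description of letters and not a measured binding site, and its absence says only that the letters are not in this window.

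Of the 70 genes, 37 passed a filter on dim signal, in which the probe set with the highest mean of a gene had to exceed the 40th percentile of all probe sets, a log2 value of 3.97. Among these, Adamtsl4, Mmp11 and Adamtsl1 were at least 2-fold higher on the Snail1 KO array and Timp1 was at least 2-fold lower. The 3 higher genes are 8.11% of the 37, where 0.971% of all 12874 genes that passed were that much higher. The 1 lower gene is 2.70%, where the share of all genes was 1.84%, so the lower count was near the background. At 1.5-fold, the same 3 genes were higher, where 5.06% of all genes were, and 5 were lower (Timp1, Adamts12, Adam8, Adam9 and Adamts6), which is 13.5% beside 6.08% of all genes. The median difference was -0.09 over the 37 and -0.01 over all genes, and the robust SD of the differences was 0.32 in both. The other 33 of the 37 lay within 2-fold, as the plot of both arrays by gene shows.

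**Figure D1:**
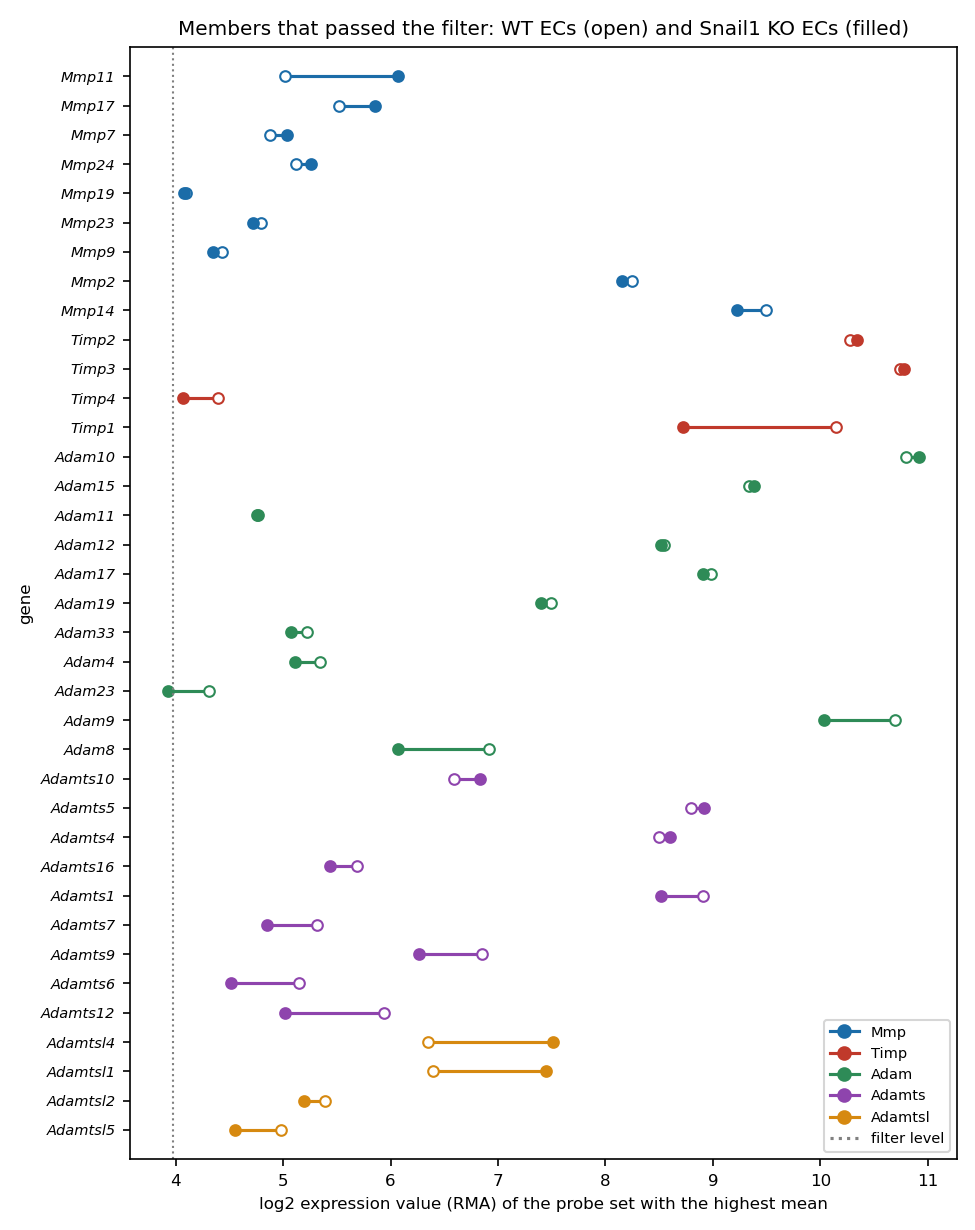
Log2 expression values of the 37 members that passed the filter, on the WT array (open circles) and the Snail1 KO array (filled circles), by family and in order of the difference; the x axis is the log2 value of each gene's probe set with the highest mean, and the dotted line is the filter level of 3.97. The long bars belong to Timp1 (10.14 to 8.72), Mmp11 (5.01 to 6.07), Adamtsl4 (6.35 to 7.51) and Adamtsl1 (6.39 to 7.45), and each point is 1 array. Positions of different genes are not comparable as amounts of RNA.

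Timp1, the inhibitor known for its induction by growth factors and cytokines, had the largest difference of the 37 members. Its only probe set read 10.14 on the WT array and 8.72 on the Snail1 KO array, 2.68-fold lower. Of all genes that passed, 0.886% had a lower difference. It was thus among the genes far down on the Snail1 KO array, where 1.84% of all genes that passed were at least 2-fold lower.

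Timp2, which takes part in the activation of pro-MMP2 at the cell surface as well as inhibiting MMPs, had 6 probe sets that did not agree. The one with the highest mean read 10.27 and 10.34, a difference of 0.07. The next 2 read 9.58 and 10.36, and 9.48 and 10.39, which are differences of 0.78 and 0.91. A further one went from 7.79 to 8.46, and the dimmest that passed from 6.19 to 8.08, a difference of 1.89. All 5 passing probe sets were therefore higher on the Snail1 KO array, by anything from 0.07 to 1.89, and their mean was 0.86. The sixth, at 3.09 and 2.95, was below the filter.

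Timp3, the inhibitor that binds to the matrix and also blocks several ADAM and ADAMTS enzymes, differed more in its dimmer probe sets. Its brightest probe sets read 10.74 and 10.78, and 10.58 and 10.74. The other 2 went from 8.99 to 9.52 and from 6.49 to 7.34, so all 4 were higher, by 0.04 to 0.85. Timp4, an inhibitor of restricted tissue range, was at 4.40 and 4.06, close to the filter level. With the probe set of the highest mean, the median of the 4 inhibitors was -0.14, and with the mean of the passing probe sets it was 0.03, so its sign depends on which probe sets are used.

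**Figure D2:**
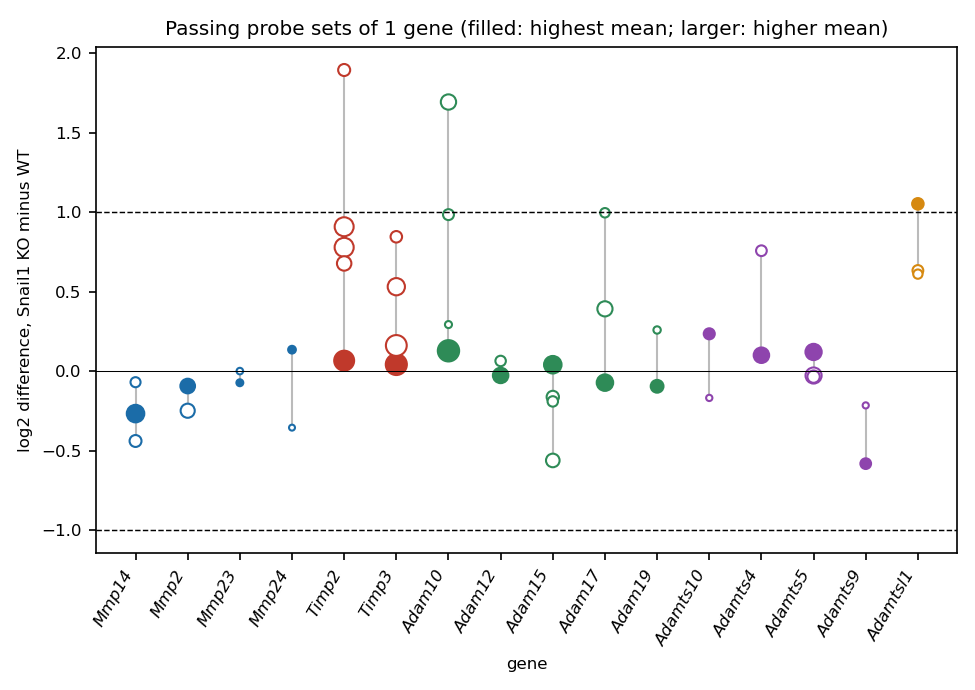
Log2 differences (y axis, Snail1 KO minus WT) of every passing probe set of the 16 members with more than 1, by gene (x axis); filled circles are the probe set with the highest mean of the gene, a larger circle has a higher mean, and dashed lines are at 2-fold. Timp2 spans 0.07 to 1.89, Adam10 0.13 to 1.69 and Adam17 from -0.07 to just under the 2-fold line, and in all 3 the filled circle is the lowest.

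Of 16 members with several passing probe sets, 3 (Timp2, Adam10 and Adam17) had differences at least 1 log2 unit apart, a larger share than the 4.97% of 6053 genes of the whole table. The median distance between the highest and lowest difference of a gene was 0.42 for the members and 0.34 for all genes. In 8 of the 16 all passing probe sets had the same sign, near the 56.0% of all such genes, in 7 the signs were mixed, and in Mmp23 a probe set had the same value on both arrays. Counted by probe set, 5 of 66 passing ones were at least 2-fold higher, where 1.57% of 23310 were, and 1 was lower, where 1.52% were. The 5 were those of Adamtsl4, Mmp11 and 1 each of Adamtsl1, Timp2 and Adam10. The cause of the disagreement was not tested.

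Among the matrix metalloproteinases, Mmp11 stood alone past 2-fold. It encodes stromelysin-3, which is activated inside the cell by furin, and its single probe set read 5.01 on the WT array and 6.07 on the Snail1 KO array, 2.08-fold higher. Of all genes that passed, 99.2% had a lower difference. The other 8 Mmp genes that passed lay between -0.27 and 0.33.

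The membrane-anchored enzymes were close to level. Mmp14, which encodes MT1-MMP, the main pericellular collagenase and an activator of pro-MMP2, read 9.50 and 9.23, and its 3 probe sets differed by -0.07 to -0.44. Mmp17, a membrane-type enzyme held by a lipid anchor, was at 5.52 and 5.85, and Mmp24, a membrane-type enzyme known from neurons, at 5.12 and 5.26. The second passing probe set of Mmp24 went the other way, from 4.34 to 3.98, and the mean of the pair was -0.11, so its sign depends on the probe set. Mmp16, of the same class, did not pass, with 4.04 and 3.68 in its brightest probe set.

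The gelatinases, which digest denatured collagen and the collagen of basement membranes, differed little. Mmp2 read 8.25 and 8.16, with a second probe set at -0.25, and Mmp9 read 4.43 and 4.35, just above the filter. Mmp7, the matrilysin, was at 4.88 and 5.03, Mmp23 at 4.80 and 4.72 and Mmp19 at 4.10 and 4.08. In their brightest probe sets none of these moved by as much as the robust SD of all genes. A second Mmp19 probe set, below the filter, went from 3.22 to 3.85, a difference of 0.64.

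The 4 collagenases and the other stromelysins were all below the filter. Mmp13 was furthest apart, at 3.81 and 3.01, a difference of -0.80 between values that are both dim. Mmp1a and Mmp1b, Mmp8, Mmp3 and Mmp10 lay between 2.44 and 3.97 on both arrays. Most of these genes are neighbours: in the RefSeq annotation, 10 Mmp genes follow each other on chromosome 9 with no other protein-coding gene between them. Of the 9 of these among the members (Mmp27 was not analysed here), Mmp7 alone passed the filter.

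The same cluster is known for response to AP-1, the transcription factor of Fos and Jun proteins. The AP-1 motif TGANTCA, searched on both strands, occurred in the windows of 8 of the 9 cluster members. Over all 41 members with a window it occurred in 11, which is 26.8%, beside 8.97% of all genes. Of these 11, 9 were below the filter, and the other 2 were Mmp7 and Adam19, with differences of 0.15 and -0.10. Of the 41 members with a window, 21 passed the filter, so many were dim with or without the motif. As 8 of the 11 are of the cluster, the count of dim genes largely restates that the cluster was dim. Among the 21, 9.52% held the motif, beside 6.33% of all genes that passed and had a window.

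**Figure D3:**
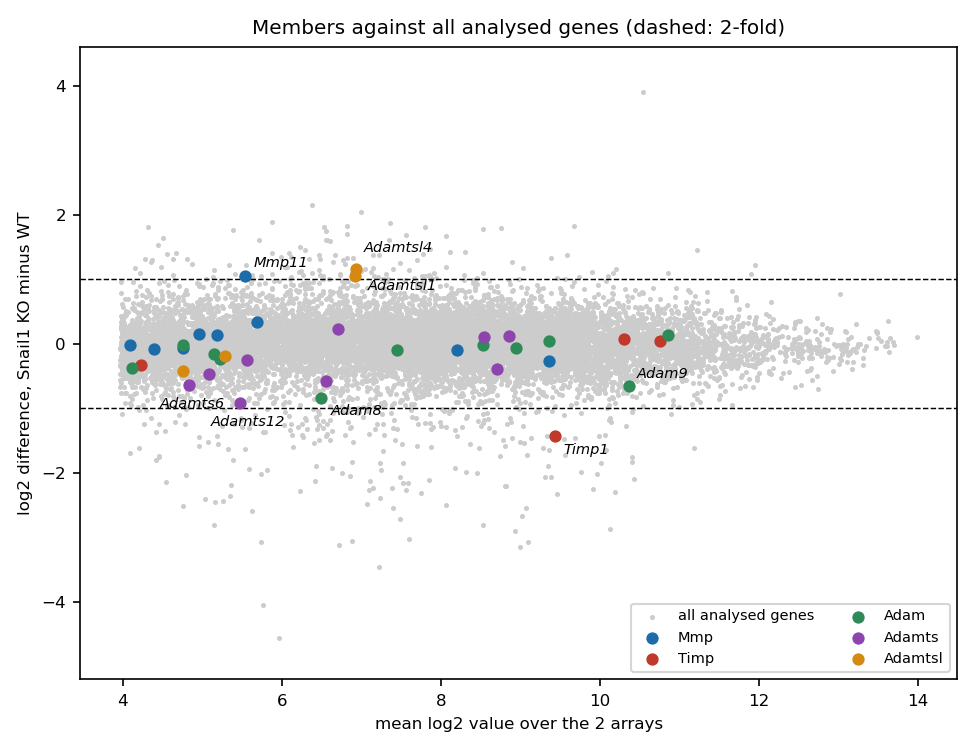
Log2 difference (y axis, Snail1 KO minus WT) against the mean log2 value over the 2 arrays (x axis) for all 12874 genes that passed the filter (grey) and the 37 members (coloured by family), with dashed lines at 2-fold. Mmp11, Adamtsl4 and Adamtsl1 lie above the upper line and Timp1 below the lower one; Adamts12, Adam8, Adam9 and Adamts6 are the other members labelled, at 1.5-fold or more.

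The ADAM genes were lower in 9 of 11 that passed, where 50.9% of all genes were lower, none by 2-fold, with a median of -0.10. With the mean of the passing probe sets 7 of the 11 were lower. Adam8, a sheddase known from leukocytes and inflammation, had 1 probe set at 6.92 and 6.07, 1.80-fold lower. Adam9, a sheddase of wide expression, was at 10.69 and 10.03, 1.58-fold lower, also from 1 probe set. Both readings therefore lack a second probe set to set beside them.

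Adam10 and Adam17 are the main sheddases of most cells, acting on Notch receptors, cadherins, EGF-family ligands and TNF. Adam10 read 10.80 and 10.92 in its brightest probe set, a difference of 0.13. Its other probe sets went from 7.63 to 9.33, from 6.17 to 7.15 and from 4.69 to 4.98, so all 4 were higher on the Snail1 KO array, by 0.13 to 1.69. Adam17 read 8.98 and 8.91, 8.22 and 8.61, and 5.53 and 6.53 in its 3 probe sets. The sign of Adam17 thus depends on the probe set, with -0.07 in the brightest, 0.39 in the next, just under 1 log2 unit in the dimmest and a mean of 0.44.

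The remaining ADAM genes that passed were within 1.5-fold in their brightest probe sets. Adam15, known for a disintegrin domain with an integrin-binding motif, read 9.34 and 9.38 in its brightest probe set, one that can bind several transcripts, and its other 3 were lower by up to -0.56. Without that probe set the gene's difference was -0.56. Adam12 and Adam19, a pair of sheddases of mesenchymal and cardiovascular development, differed by -0.03 and -0.10, and the second probe set of each was of the opposite sign, at 0.06 and 0.26. Adam33, Adam4, Adam11 and Adam23 lay between -0.38 and -0.01, at levels of 5.34 or below, and Adam23 read 3.93 on the Snail1 KO array, under the filter level.

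The other 17 Adam genes were below the filter, with differences from -0.31 to 0.21. Many, such as Adam2, Adam3, Adam18 and Adam32, are known from sperm and testis. Adam18, Adam3, Adam5, Adam32 and Adam9 are consecutive protein-coding genes on chromosome 8 in the RefSeq table. Of these 5 neighbours Adam9 alone passed. Adam28 and Adam22, at 3.43 and 3.47 and at 3.77 and 3.93, were dim as well.

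The ADAMTS genes were lower in 6 of 9 that passed, beside 50.9% of all genes, and the median was -0.39. Adamts12, a secreted enzyme known for cutting cartilage oligomeric matrix protein, was at 5.94 and 5.01, 1.90-fold lower. Adamts6 was at 5.15 and 4.51, 1.55-fold lower, and Adamts7, close in structure to Adamts12, at 5.32 and 4.85. These are dim genes, and under a stricter filter, at the 60th percentile, the family median was 0.10 over 5 genes, of the opposite sign.

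The proteoglycanases, which cut aggrecan and versican, were split. Adamts1, also known as an anti-angiogenic protein, read 8.91 and 8.52 in its single probe set, a difference of -0.39, and Adamts9 read 6.85 and 6.27, with a second probe set at -0.22. Adamts4 read 8.50 and 8.60, with a second probe set from 6.20 to 6.95, and Adamts5 read 8.79 and 8.91, with 2 more at -0.03. Adamts1 and Adamts5 are next to each other on chromosome 16 in the RefSeq table, and neither differed by 1.5-fold. Adamts1 was lower, while the sign of Adamts5 depends on the probe set. Adamts10, a fibrillin-binding member, was at 0.23 by one probe set, the brightest, and at -0.17 by the other, and Adamts16 differed by -0.25. The 6 Adamts genes below the filter (Adamts3, Adamts8, Adamts15, Adamts18, Adamts19 and Adamts20) lay between -0.13 and 0.19.

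The ADAMTS-like genes held 2 of the 3 members past 2-fold in the higher direction. Adamtsl4, whose product binds fibrillin-1 microfibrils, read 6.35 on the WT array and 7.51 on the Snail1 KO array in its single probe set, 2.23-fold higher. Adamtsl1, also called punctin, read 6.39 and 7.45 in its brightest probe set, 2.07-fold higher. Its other 2 went from 6.29 to 6.92 and from 5.64 to 6.25, so all 3 were higher, and their mean of 0.77 was below the 2-fold line.

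Not every ADAMTS-like gene was higher. Adamtsl2, a regulator of TGF-beta availability, was at 5.39 and 5.19 and Adamtsl5 at 4.98 and 4.55, while Adamtsl3, at 3.64 and 3.74, did not pass. The family median of 0.43 over 4 genes therefore lies between a high and a low pair. Of all genes that passed, 99.4% had a lower difference than Adamtsl4 and 99.2% a lower one than Adamtsl1.

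Genes that work with the metalloproteinases were taken from lists by function. The same 2-fold shares of all genes, 0.971% higher and 1.84% lower, stand beside them. The lists were chosen with earlier results of these data known, so a larger share in a list is a description and not a tested excess. The partners of ADAM10 and ADAM17, iRhoms and tetraspanins among them, were higher in 9 of 11 genes, where 48.9% of all genes were higher, and none was past 2-fold. Their median was 0.19. Pacs2, a sorting protein for ADAM17, differed by 0.82 in the brightest of its probe sets but by -0.12 in another. The tetraspanins Tspan33, Tspan15 and Tspan14, which escort ADAM10, differed by 0.64, 0.44 and 0.32, and another Tspan33 probe set by -0.23.

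The list of inhibitors outside the TIMP family also holds matricellular proteins such as Sparcl1, which are not MMP inhibitors. It was lower in 5 of 7 genes, where 50.9% of all genes were lower, with 1 past 2-fold. Tfpi2, a Kunitz-type inhibitor secreted into the matrix, read 10.70 and 9.28, 2.69-fold lower, a size close to that of Timp1. Reck, a membrane-anchored MMP inhibitor, was 1.46-fold higher, at 7.30 and 7.85, and Spock1, a testican, differed by 0.57 at a dim level. Sparcl1 differed by -0.46. The list median was -0.42, which is itself the value of a matricellular protein, so it does not describe the inhibitors alone. With no filter the median over 9 genes was -0.04.

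Activators of the zymogens were close to level. Plau, the urokinase that starts the plasmin cascade, was the furthest at 8.06 and 7.40, 1.58-fold lower, with its second probe set at -0.46. Furin, which activates MMP11, MT-MMPs and ADAMs inside the cell, differed by -0.11, Plat by -0.19 (0.22 in its other probe set) and Pcsk6 by 0.11. Neither direction held a gene past 2-fold among 8, and the median was -0.07.

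Among other metalloproteinases, Tll1, a tolloid-like procollagen C-proteinase, was 2.23-fold lower, at 6.87 and 5.72. Ece2 and Ece1, endothelin-converting enzymes, differed by -0.69 and 0.28, with Ece1 probe sets from -0.41 to 0.42, and Ace by -0.04. The median of 7 genes was -0.03. The list of MMP receptors and inducers had 9 genes with a median of -0.13, and Cd44, a hyaluronan receptor that docks MMPs at the cell surface, was its 1 gene past 2-fold, at 8.50 and 6.27. Tnf, Bsg and Cav1 of that list differed by -0.37, -0.34 and -0.22.

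Substrates of the ADAMTS enzymes were lower in 6 of 12 genes, near the 50.9% of all genes, and 2 of them were past 2-fold lower. Thbs2, an anti-angiogenic thrombospondin, read 9.25 and 7.95 with differences from -1.42 to -0.91 in its 3 probe sets. Vcan, the proteoglycan versican, went from 5.08 to 3.83, below the filter level, and its other passing probe set differed by -0.47. Col3a1, a fibrillar collagen, read 7.33 and 6.33, and Bgn, a small proteoglycan, differed by -0.80. With the mean of the passing probe sets 1 gene of the list was past 2-fold. At 1.5-fold 5 of the 12 were lower, where 6.08% of all genes were, and none was higher, where 5.06% were. The median was -0.05.

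Membrane proteins known to be shed by ADAMs were evenly divided, 15 higher and 15 lower, with a median of -0.03, but 5 of the 30 were at least 2-fold lower and 1 was higher. That is 16.7% in the lower direction and 3.33% in the higher. Ereg and Hbegf, growth factors of the EGF family that ADAM17 releases, read 6.24 and 3.83, and 9.90 and 7.70. Cd44, listed here too, was 4.70-fold lower and Sele, the leukocyte-binding E-selectin, 2.59-fold lower. The group was thus lower at its far end and level at its middle, and with the mean of the passing probe sets its median was 0.09 and no gene was 2-fold higher.

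**Figure D4:**
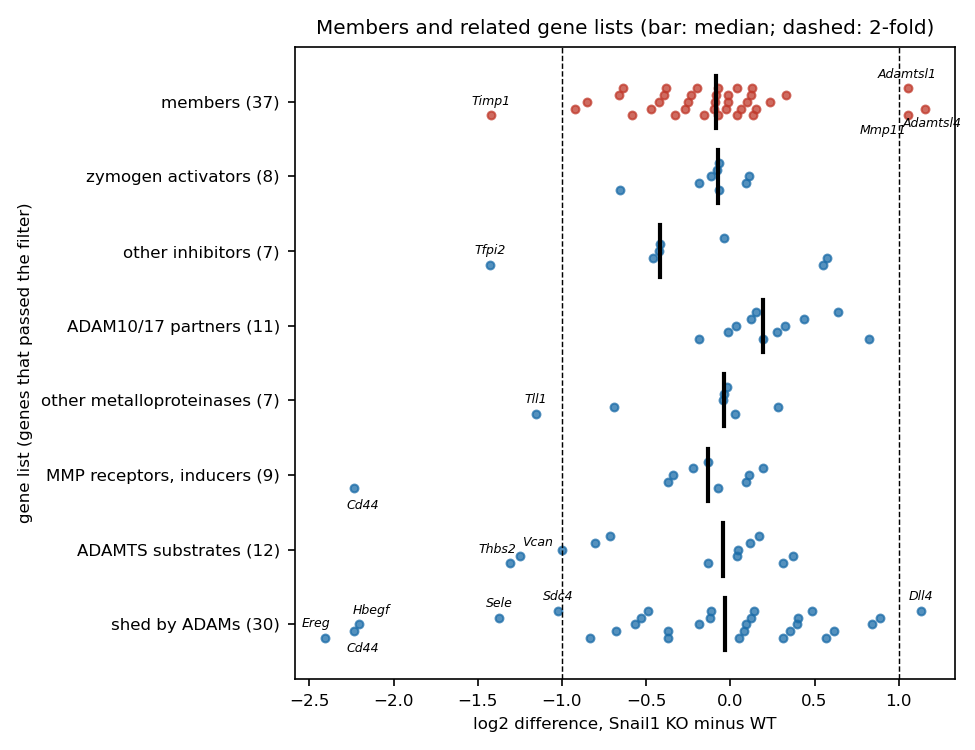
Log2 differences (x axis, Snail1 KO minus WT) of the 37 members (red) and of the genes of 7 related lists that passed the filter (blue), 1 point a gene, with the number of genes in brackets; black bars are medians and dashed lines are at 2-fold. The medians lie between -0.42 for the list of other inhibitors and 0.19 for the ADAM10 and ADAM17 partners. The list of other inhibitors also holds matricellular proteins. The lowest points are Ereg, Cd44 and Hbegf.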

How the data were processed

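Expression was measured on 1 Affymetrix mouse array per group, of amplified biotinylated RNA from 250 ng of total RNA, per the labels' protocols. The deposited table holds log2 values per probe set, which the authors made by RMA (affy), per the submitters' processing notes, with no version named there. RMA corrects background, equalises the distributions of the arrays by quantile normalization and summarises probes, so a change in total RNA cannot be seen and differences of dim probe sets are compressed. Median values were 4.66 and 4.70, and signal over background is not known. The number of arrays limits the precision.

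The table holds 45101 probe sets, of which 64 controls, 932 with several gene symbols (5 of them naming a member) and 9160 unnamed here were left out of gene results. Symbols come from GEO's platform annotation, which can be old. Where a gene had several probe sets, the one of highest mean stood for it, and the gene was analysed if that mean exceeded the 40th percentile, a log2 value of 3.97. Differences were Snail1 KO minus WT, counted at 2-fold and 1.5-fold; with 1 array a group there is no p-value or standard error. Robust SD is the scaled median absolute deviation. Promoter windows and gene neighbours came from RefSeq tables of GRCm38.p6. Any member could be named, and up to 4 genes of each related list, those with the largest differences. Marker genes were named after seeing their values. The members and lists were chosen with earlier results of these data known. The counting code was checked on simulated data with planted differences well past 2-fold, which says nothing about genes close to the 2-fold line. Python 3.11.15, NumPy 2.4.6 and pandas 2.3.3 were used. Alternatives were other filters, means over probe sets, leaving out cross-matching probe sets, centring and other fold thresholds.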

Additional observations from a re-analysis of the deposited data

How the results depend on the processing

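No paired analysis was possible because each group holds 1 array, and for the same reason no array could be left out. None of the 4 members past 2-fold turned its sign in the alternatives run for it. Single genes of the related lists were not recomputed. Timp1, Adamtsl4 and Mmp11 have 1 probe set each, so by construction no filter or probe set rule could change their values. Centring gave -1.42, 1.17 and 1.06. The filter at the 60th percentile kept Timp1 and Adamtsl4 and removed Mmp11. Adamtsl1 was at 0.77 with the mean of its probe sets. By construction, the threshold of 1.5-fold gave 5 lower members and that of 3-fold gave 0 in each direction. The Adamts median was 0.00896 without a filter, -0.194 with the filter at the 20th percentile and 0.0998 at the 60th. The Adamtsl median was 0.103 without a filter and at the 20th percentile, 1.11 at the 60th over 2 genes and 0.285 with means of probe sets. The Timp median was 0.0416 at the 60th percentile, 0.395 with the mean of all probe sets and 0.0320 with that of the passing ones. Of the related lists, the median of shed proteins was 0.0915 and 0.0928 with means over all and over passing probe sets, that of other inhibitors -0.0364 without a filter and at the 20th percentile, that of other metalloproteinases -0.150 with the mean of all probe sets, and that of ADAMTS substrates -0.380 at the 60th percentile. Filters change which genes are counted, and means change which probe sets are; no other cause was tested. The other 104 recomputed values of the member counts and of the family and list medians stayed within 1.5 times or 0.1 log2 units. The 2-fold counts of the lists moved further: at the 60th percentile 3 shed proteins and 1 ADAMTS substrate were lower, and with either mean of probe sets 1 substrate was lower and 0 shed proteins were higher. The thresholds of 1.5-fold and 3-fold moved list counts by construction. Dim members, 33 of 70, have no known distance from background.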
